A study of Mus musculus with 4 samples.

Results

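The 10 genes described here encode receptors with which phagocytes take up debris, modified lipoproteins and dying cells, and they were picked from the table by name. Earlier results of these data were known when they were picked. They were *Lrp1*, *Mrc1*, *Msr1*, *Marco*, *Stab1*, *Stab2*, *Axl*, *Mertk*, *Timd4* and *Siglec1*, 10 of the 41214 genes in the table. RNA-seq was performed on B220+ cells of mouse spleen, 2 libraries from MIZ-1WT mice and 2 from MIZ-1DPOZ mice, and the labels name no stimulus. B220 is the CD45R form carried by B cells, and B220+ splenocytes were selected with a biotin-coupled antibody and magnetic beads after lysis of red cells. MIZ-1, encoded by *Zbtb17*, is a zinc finger transcription factor whose POZ domain mediates oligomerization. In the MIZ-1DPOZ mice a floxed POZ domain was deleted by MB1-Cre, which is driven from the B cell gene *Cd79a*, so the deletion is directed at B cells. All lines were on a C57BL/6 background and the animals were young adults. Whether the MIZ-1WT controls carried Cre, how many animals went into a library and their sex are not given in the labels.

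Scavenger receptors bind many unrelated polyanionic ligands, such as oxidized LDL and bacterial surfaces, and deliver them to the lysosome. Receptors of dying cells recognize phosphatidylserine on the cell surface, either directly, as TIM-4 does, or through the bridging proteins GAS6 and protein S, as the kinases AXL and MERTK do. In the spleen such receptors are known above all from macrophages of the red pulp and the marginal zone, from dendritic cells and from the endothelium of the sinuses.

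The start regions of these genes are shown because the 10 genes moved together between the genotypes. Of the 10 genes, 8 had an entry in the RefSeq promoter table (GRCm38.p6). *Msr1* and *Siglec1* had none. The 250 bases before the RefSeq start were searched on both strands for 3 motifs. These were GAGGAA (an ETS core read by PU.1 and SPI-C), CACGTG (an E-box) and TGCTGAC (a MAF half-site), and no matches overlapped. The gene positions given below are from GENCODE M21, whose starts can differ. They differed by 22 bases for *Mrc1*, whose window reaches into the GENCODE gene, and by 28 for *Axl*. Those of *Stab2*, *Mertk* and *Timd4* differed too. In the following lines the sequences run 5′ to 3′ on the strand of the gene and the capitals mark GAGGAA or its reverse complement. *Mrc1* is shown for its 3 matches, *Marco* and *Axl* for 1 match each, and *Lrp1* because it held none of the 3 motifs.
*Mrc1*, chr2:14229164-14229413, plus strand: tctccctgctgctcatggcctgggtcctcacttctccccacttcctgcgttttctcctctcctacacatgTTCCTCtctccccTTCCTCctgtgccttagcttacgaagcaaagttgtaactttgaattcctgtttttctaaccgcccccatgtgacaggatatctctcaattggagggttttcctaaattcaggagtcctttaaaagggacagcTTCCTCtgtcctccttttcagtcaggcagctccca
*Marco*, chr1:120505025-120505274, minus strand: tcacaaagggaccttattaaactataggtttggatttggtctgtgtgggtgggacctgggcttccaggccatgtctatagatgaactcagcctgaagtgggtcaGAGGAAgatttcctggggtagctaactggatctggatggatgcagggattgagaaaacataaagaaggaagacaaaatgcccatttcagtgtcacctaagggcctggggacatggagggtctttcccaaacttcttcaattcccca
*Axl*, chr7:25788734-25788983, minus strand: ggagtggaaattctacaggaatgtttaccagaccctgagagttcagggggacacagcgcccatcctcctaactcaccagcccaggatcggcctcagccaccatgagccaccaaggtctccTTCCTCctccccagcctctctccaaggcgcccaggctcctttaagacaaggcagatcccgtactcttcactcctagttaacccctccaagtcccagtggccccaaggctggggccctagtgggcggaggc
*Lrp1*, chr10:127621149-127621398, minus strand: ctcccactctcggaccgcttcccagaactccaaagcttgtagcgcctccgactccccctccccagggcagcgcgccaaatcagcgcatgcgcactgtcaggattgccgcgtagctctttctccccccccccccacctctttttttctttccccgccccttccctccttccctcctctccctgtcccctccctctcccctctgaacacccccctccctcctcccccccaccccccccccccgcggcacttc
GAGGAA was found in 4 of the 8 regions, those of *Mrc1*, *Marco*, *Stab1* and *Axl*, and in 23.3% of all 32851 RefSeq regions of this length. The MAF half-site was found in 1 of the 8, that of *Timd4*, and in 3.81% of all regions. CACGTG was found in 0 of the 8 and in 6.02% of all regions. These matches describe the letters of the window only. The regions also differed in base composition. That of *Lrp1* had 67.2% G and C with 13 CpG dinucleotides, whereas that of *Marco* had 47.6% and 0.

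Each library held between 43026814 and 46387209 counts on genes. Reads outside genes made up 25.5% to 27.2% of the table in MIZ-1WT and 21.1% to 21.6% in MIZ-1DPOZ. Levels are given as CPM, counts scaled to a common total after TMM correction of the library sizes, and between genes as RPKM, the same value per kilobase of exon. The genotype effect was fitted by edgeR's quasi-likelihood method on 14554 genes, those reaching 10 counts in 2 or more libraries, and log2 fold changes are MIZ-1DPOZ over MIZ-1WT. All 10 receptor genes passed this filter, and each had at least 10 counts in every library. The labels call the libraries replicates and the methods name them biological duplicates.

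At an adjusted p under 0.05, 9 of the 10 receptor genes rose in MIZ-1DPOZ and 0 fell. *Stab1* had the same direction without passing the test. Over all tested genes 21.1% were called higher, 18.9% lower and 40.0% in either direction. The counts of every gene list below are to be read beside these shares. The median log2 fold change of the 10 genes was 2.06, against -0.00635 over all tested genes. For all 10 genes both MIZ-1DPOZ libraries lay above both MIZ-1WT libraries, which was so for 37.2% of the tested genes. All 10 had a log2 fold change of at least 1, and 9 of them were called. A log2 fold change of at least 2 was found for 6, all of them called. A called rise of these sizes was found in 9.65% and 2.67% of the tested genes. With the fold limit of the study, 0.6 on the log2 scale, and an unadjusted p under 0.05, all 10 were higher, against 15.0% of the tested genes. The 10 genes were picked with earlier results of these data known, so setting them beside these shares does not test for an excess. In whole-fraction RNA, more cells that express a gene and more RNA of it per cell cannot be told apart, so none of these values says which cells carried the receptors.

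Several other measures moved with this rise. All 16 genes of a macrophage marker list were higher in MIZ-1DPOZ (median log2 fold change 1.97, range 0.84 to 2.54), and their summed level was 974 and 1243 CPM in the MIZ-1WT libraries and 5285 and 3438 CPM in the MIZ-1DPOZ libraries. None of these 16 markers was at 0 in any library. The genotypes were also separated by sex-linked genes, with *Xist* at 49 and 60 counts in MIZ-1WT and 38145 and 40838 in MIZ-1DPOZ, and 4 of 4 Y-linked genes lower in MIZ-1DPOZ. Genotype and the sex of the mice therefore cannot be told apart. The part of macrophage RNA in the rise of the receptors was not tested.

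**Figure D1:**
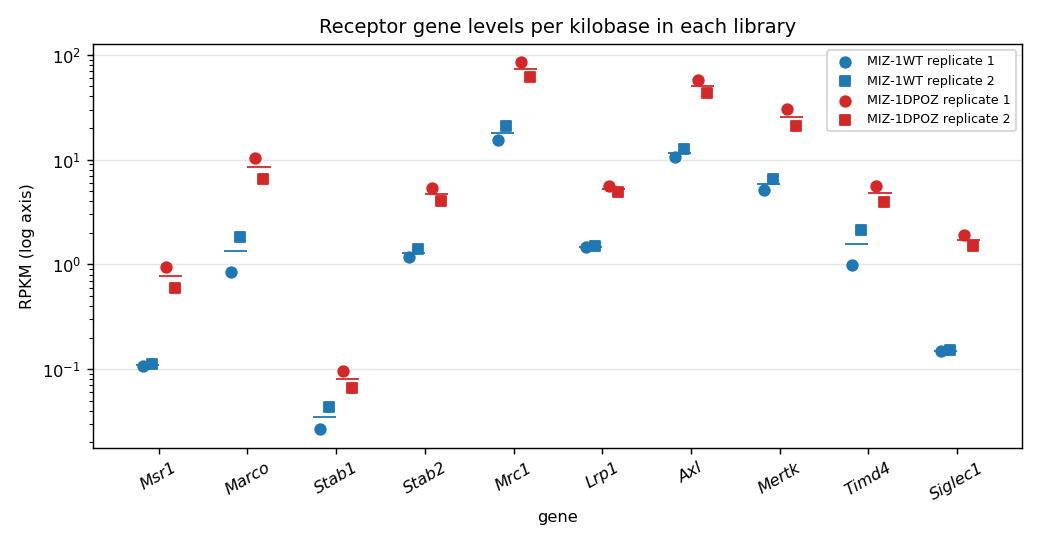
Level of each receptor gene in RPKM on a log axis, with circles for replicate 1, squares for replicate 2, blue for MIZ-1WT, red for MIZ-1DPOZ and a line at the mean of each genotype. For every gene both red points lie above both blue points, and the levels run from 0.0267 RPKM for *Stab1* in a MIZ-1WT library to 84.7 RPKM for *Mrc1* in a MIZ-1DPOZ library.

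The class A scavenger receptors, trimeric proteins with a collagenous stalk that bind polyanionic ligands, are represented by *Msr1* and *Marco*. *Msr1* (ENSMUSG00000025044, protein coding, chr8:39581685-39642673 of GRCm38, minus strand) encodes SR-A, a receptor for modified LDL. Its counts were 30 in both MIZ-1WT libraries and 288 and 165 in MIZ-1DPOZ replicates 1 and 2. The MIZ-1WT libraries were alike, while MIZ-1DPOZ replicate 1 stood well above replicate 2 and both stood far above MIZ-1WT. *Msr1* rose from 0.701 ± 0.018 CPM (SD, n = 2) to 4.90 ± 1.62 CPM (SD, n = 2), with a log2 fold change of 2.80 (standard error, SE, 0.30, adjusted p = 0.00224).

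*Marco* (ENSMUSG00000026390, chr1:120474538-120505024, minus strand) encodes a bacteria-binding receptor that marks macrophages of the splenic marginal zone. Its counts were 71 and 148 in MIZ-1WT and 957 and 547 in MIZ-1DPOZ. Both genotypes had a wide spread, and the MIZ-1WT replicates differed by -1.09 on the log2 scale (replicate 1 minus 2). *Marco* rose from 2.57 ± 1.34 CPM to 16.3 ± 5.40 CPM (SD, n = 2 each), a log2 fold change of 2.66 (SE 0.39, adjusted p = 0.00511). Of the 4 other genes listed for marginal zone and metallophilic macrophages, *Cd209b*, the marginal zone lectin SIGN-R1, had only 4 counts in each MIZ-1WT library and 16 and 17 in MIZ-1DPOZ. It passed the filter on low counts only through the MIZ-1DPOZ libraries, so no test of it is given. *Nr1h3* and *Lpl* were higher and *Cd209a* was lower, with a log2 fold change of -1.35 (SE 0.18, adjusted p = 0.00364). The summed level of the 4 genes was 20.4 and 20.6 CPM in MIZ-1WT and 73.0 and 39.2 CPM in MIZ-1DPOZ.

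The stabilins are large receptors with fasciclin domains, and sinusoidal endothelium uses them to clear hyaluronan and aged proteins. *Stab2* (ENSMUSG00000035459, chr10:86841198-87008025, minus strand) encodes the hyaluronan receptor HARE. It had 449 and 518 counts in MIZ-1WT and 2212 and 1532 in MIZ-1DPOZ, so that every MIZ-1DPOZ library was at least 2.83 times as high in CPM as any MIZ-1WT library. The log2 fold change of *Stab2* was 1.85 (SE 0.16, adjusted p = 0.00148). *Stab1* (ENSMUSG00000042286, chr14:31139013-31168641, minus strand) encodes the receptor also called CLEVER-1 and was the lowest of the 10 genes. Its counts were 12 and 19 in MIZ-1WT and 47 and 30 in MIZ-1DPOZ, with a log2 fold change of 1.20 (95% confidence interval 0.26 to 2.14, adjusted p = 0.0512). The libraries did not overlap, but the gene did not pass the test.

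Exons of *Stab1* overlap those of *Nt5dc2* on the opposite strand, and the strand setting of the counting is not stated. *Nt5dc2* had 36 and 39 counts in MIZ-1WT and 102 and 65 in MIZ-1DPOZ, more than *Stab1* in each library, so reads of the 2 genes may not be separated. *Stab2* overlaps the antisense gene *Gm16268*, which had at most 3 counts. No other receptor gene shares exon bases with another annotated gene.

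Of the 10 genes of the endothelial list 5 were tested, with 1 higher and 1 lower (median log2 fold change 0.42). Over all tested genes 21.1% were called higher and 18.9% lower. With 1 library left out the median of the list stayed between 0.38 and 0.46. *Emcn* was at 0 counts in all 4 libraries, and *Flt4*, *Tek* and *Lyve1*, which mark lymphatic, vascular and sinusoidal endothelium, had at most 4. *Cdh5*, the vascular cadherin, had 76 and 77 counts in MIZ-1WT and 112 and 107 in MIZ-1DPOZ, and its log2 fold change was 0.42 (SE 0.18, adjusted p = 0.112). *Vwf*, the von Willebrand factor of endothelium and megakaryocytes, was the gene called higher, with 73 and 116 counts in MIZ-1WT and 361 and 170 in MIZ-1DPOZ (log2 fold change 1.37, SE 0.39, adjusted p = 0.0371). *Vwf* was lower in MIZ-1WT replicate 1 than 2 and higher in MIZ-1DPOZ replicate 1 than 2. All 10 receptor genes had these signs, and 13 and 14 of the 16 macrophage markers had the first and the second. The part of endothelial RNA in the rise of the stabilins was not tested. The summed level of the list was 313 and 316 CPM in MIZ-1WT and 265 and 272 CPM in MIZ-1DPOZ, nearly all of it from *Pecam1*, which B cells also express.

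*Mrc1* (ENSMUSG00000026712, chr2:14229392-14332057, plus strand) encodes the mannose receptor CD206, an endocytic C-type lectin of red pulp macrophages. Its counts were 4289 and 5545 in MIZ-1WT and 25680 and 17276 in MIZ-1DPOZ. The lower MIZ-1DPOZ library was 2.98 times as high in CPM as the higher MIZ-1WT library. The log2 fold change of *Mrc1* was 2.02 (SE 0.19, adjusted p = 0.00178). *Mrc1* made up 43.5% of the summed RPKM of the 10 genes in MIZ-1WT and 41.9% in MIZ-1DPOZ.

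*Lrp1* (ENSMUSG00000040249, chr10:127538161-127621148, minus strand) encodes the LDL receptor-related protein CD91, which takes up protease complexes and lipoproteins and, with calreticulin as its ligand, dying cells. Its counts were 1122 and 1112 in MIZ-1WT and 4699 and 3843 in MIZ-1DPOZ. The replicates of *Lrp1* were the closest of all 10 genes, apart by -0.04 on the log2 scale in MIZ-1WT and 0.17 in MIZ-1DPOZ. It rose from 26.1 ± 0.521 CPM to 93.1 ± 7.90 CPM (SD, n = 2 each), a log2 fold change of 1.84 (SE 0.07, adjusted p = 0.000543), and ranked 13 among all tested genes by p.

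The TAM kinases bind phosphatidylserine through GAS6 and protein S. *Axl* (ENSMUSG00000002602, chr7:25757273-25788705, minus strand) had 2331 and 2692 counts in MIZ-1WT and 13747 and 9442 in MIZ-1DPOZ. Both MIZ-1DPOZ libraries lay at least 3.36 times above both MIZ-1WT libraries in CPM, and the log2 fold change was 2.10 (SE 0.16, adjusted p = 0.00108). *Mertk* (ENSMUSG00000014361, chr2:128698956-128802894, plus strand), the TAM kinase most closely tied to engulfment by macrophages, had 967 and 1187 counts in MIZ-1WT and 6276 and 4016 in MIZ-1DPOZ. Its log2 fold change was 2.15 (SE 0.20, adjusted p = 0.00171), and the libraries again did not overlap. *Tyro3*, the remaining TAM kinase, was near the floor with 18 and 7 counts in MIZ-1WT and 27 and 17 in MIZ-1DPOZ. Its libraries overlapped and its log2 fold change was 0.71 (SE 0.50, adjusted p = 0.300).

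*Timd4* (ENSMUSG00000055546, chr11:46810800-46844332, plus strand) encodes TIM-4, a tethering receptor for phosphatidylserine on resident macrophages. Its counts were 94 and 196 in MIZ-1WT and 577 and 374 in MIZ-1DPOZ. The MIZ-1WT replicates were the most unlike of the 10 genes, at -1.10 on the log2 scale, but stayed below both MIZ-1DPOZ libraries. *Timd4* rose from 3.41 ± 1.77 CPM to 10.3 ± 2.55 CPM (SD, n = 2 each), with a log2 fold change of 1.60 (SE 0.37, adjusted p = 0.0195). The size of the change depended on the MIZ-1WT library used. The log2 fold change was 1.15 without MIZ-1WT replicate 1 and 2.26 without MIZ-1WT replicate 2. The call was kept in 8 of 9 alternatives.

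*Siglec1* (ENSMUSG00000027322, chr2:131069220-131086765, minus strand) encodes sialoadhesin (CD169), a lectin for sialylated surfaces that marks metallophilic macrophages. Its counts were 46 in both MIZ-1WT libraries and 646 and 474 in MIZ-1DPOZ. Within each genotype the libraries were close together, and the lower MIZ-1DPOZ library was 9.87 times as high in CPM as the higher MIZ-1WT library. *Siglec1* rose from 1.07 ± 0.028 CPM to 12.2 ± 1.96 CPM (SD, n = 2 each), 11.3-fold by the means, with a log2 fold change of 3.50 (95% confidence interval 3.06 to 3.95, adjusted p = 0.000739). This was the largest of the 10 and ranked 25 from the top among all tested genes. Its interval lay above the point estimate of each of the 16 macrophage markers, of which *Slc40a1* was highest at 2.54. The uncertainty of the markers was not part of this comparison.

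**Figure D2:**
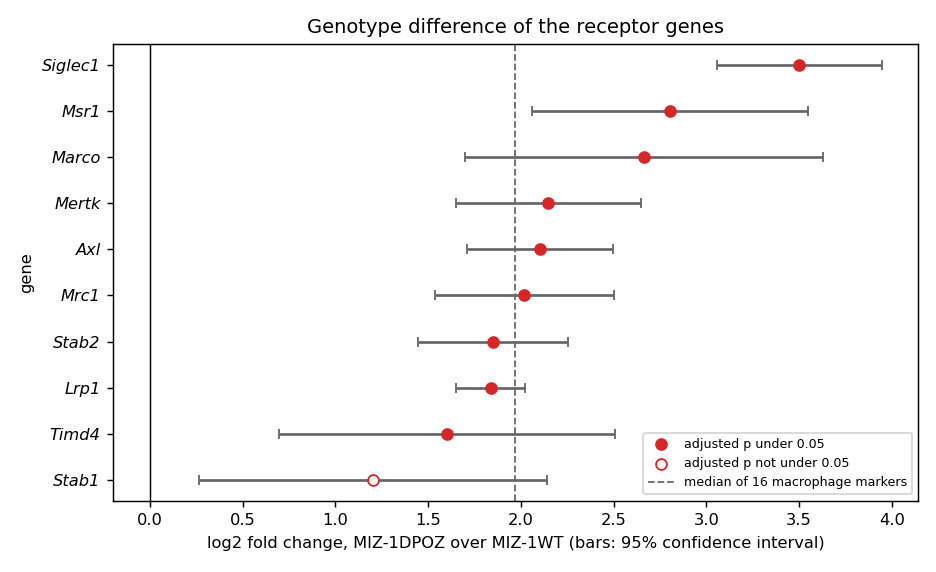
Log2 fold change of each receptor gene, MIZ-1DPOZ over MIZ-1WT, with bars for the 95% confidence interval, filled points for an adjusted p under 0.05 and a dashed line at the median of the 16 macrophage markers (1.97). The intervals of *Siglec1* and *Msr1* start above the dashed line, at 3.06 and 2.06, and the open point of *Stab1* is at 1.20.

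The order of the levels per kilobase was much the same in both genotypes. In MIZ-1WT, *Mrc1* was highest at 18.1 ± 3.73 RPKM (SD, n = 2), followed by *Axl* at 11.7 ± 1.49 and *Mertk* at 5.81 ± 0.990 RPKM. *Timd4*, *Lrp1*, *Marco* and *Stab2* came next with mean levels between 1.29 and 1.57 RPKM, and neighbours among these 4 overlapped in their libraries. *Siglec1* at 0.150, *Msr1* at 0.110 and *Stab1* at 0.035 RPKM were each separated from the next. In MIZ-1DPOZ the levels were 73.2 RPKM for *Mrc1*, 50.1 for *Axl* and 25.8 for *Mertk*, then 8.46 for *Marco*, 5.26 for *Lrp1*, 4.75 for *Timd4*, 4.65 for *Stab2*, 1.71 for *Siglec1*, 0.773 for *Msr1* and 0.081 for *Stab1*. Here *Lrp1* with *Timd4* and *Timd4* with *Stab2* overlapped in their libraries and all other neighbours were separate. By the means, *Marco* moved from place 6 to place 4 and *Timd4* from place 4 to place 6. In MIZ-1WT both were among the 4 genes with overlapping neighbours, so their places there were not set apart.

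The replicates of a genotype differed in the same direction for all 10 genes. Every receptor gene was lower in MIZ-1WT replicate 1 than in replicate 2, with a median difference of -0.30 in log2 CPM, and every one was higher in MIZ-1DPOZ replicate 1 than in replicate 2, with a median of 0.48. Over all tested genes the median size of this difference was 0.0934 in MIZ-1WT and 0.114 in MIZ-1DPOZ. In MIZ-1WT, *Lrp1* (-0.04), *Msr1* (-0.05) and *Siglec1* (-0.05) lay within this size. Their raw MIZ-1WT counts were equal, or for *Lrp1* higher in replicate 1. How many of all tested genes had the same signs was not counted. Of the 16 macrophage markers, 13 were lower in MIZ-1WT replicate 1 (median -0.38) and 14 were higher in MIZ-1DPOZ replicate 1 (median 0.67). *Lyz2* and *Itgam* differed from the receptors in both signs and *Mpeg1* in that of MIZ-1WT.

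When each receptor was set against the summed counts of the 16 macrophage markers in its own library, the genotypes overlapped for 5 of the 10 genes. Per 1000 macrophage marker counts, *Mrc1* had 101 and 106 counts in MIZ-1WT and 102 and 114 in MIZ-1DPOZ. *Axl* had 54.8 and 51.5 in MIZ-1WT and 54.6 and 62.6 in MIZ-1DPOZ. The other overlapping genes were *Lrp1*, *Stab2* and *Timd4*, whose mean ratios of MIZ-1DPOZ over MIZ-1WT were 0.926, 0.925 and 0.800. The overlap of *Axl* and *Mrc1* depended on the markers used. Both MIZ-1DPOZ libraries lay above for *Axl* without the 3 C1q genes, and for *Axl* and *Mrc1* against *Adgre1*, *Csf1r* and *Cd68* only, where the mean ratios were 1.21 and 1.15.

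Another 4 genes stayed above in both MIZ-1DPOZ libraries on this scale. *Siglec1* had 1.08 and 0.880 counts per 1000 in MIZ-1WT and 2.57 and 3.14 in MIZ-1DPOZ, a mean ratio of 2.91. *Msr1* had 0.706 and 0.574 in MIZ-1WT and 1.14 and 1.09 in MIZ-1DPOZ, a ratio of 1.75, and *Marco* had 1.67 and 2.83 in MIZ-1WT and 3.80 and 3.62 in MIZ-1DPOZ, a ratio of 1.65. *Mertk* was above by a ratio of only 1.13, and *Stab1*, with few counts, was the single gene below, at 0.597. No test was made of these ratios, and the share of all genes whose libraries separate on this scale was not counted.

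**Figure D3:**
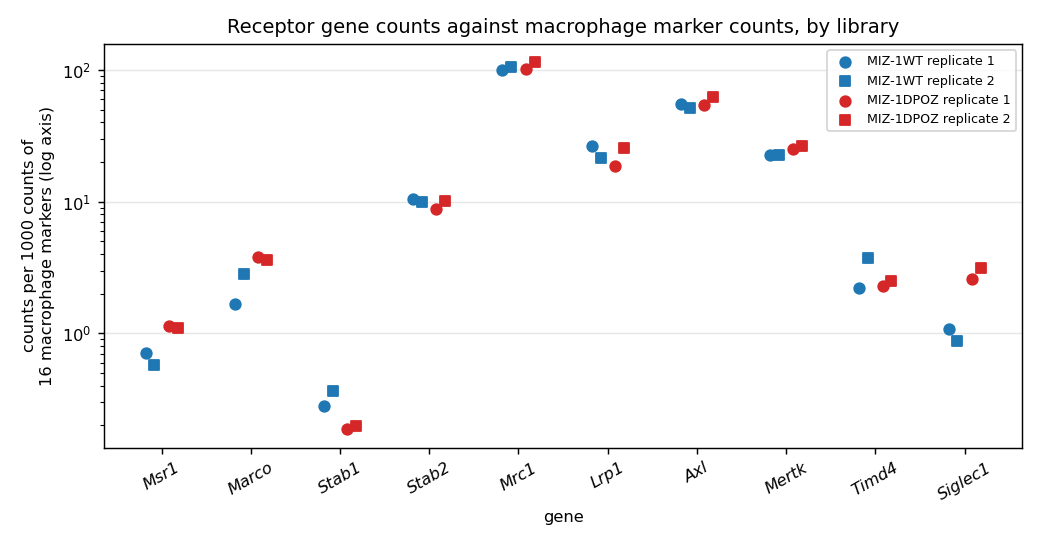
Counts of each receptor gene per 1000 summed counts of 16 macrophage markers in the same library, on a log axis, with circles for replicate 1, squares for replicate 2, blue for MIZ-1WT and red for MIZ-1DPOZ. The blue and red points of *Mrc1*, *Axl*, *Lrp1*, *Stab2* and *Timd4* overlap, while *Siglec1* is higher in both red points (2.57 and 3.14) than in both blue points (1.08 and 0.880).

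The bridging proteins and soluble opsonins, among them the ligands of AXL and MERTK, moved largely in the same direction as the receptors. Of the 10 genes, 8 were higher and 1 was lower (median log2 fold change 1.88). With 1 library left out the median ranged from 1.35 to 2.21. *Gas6*, the ligand of AXL and MERTK, had 18 and 26 counts in MIZ-1WT and 244 and 155 in MIZ-1DPOZ, a log2 fold change of 3.07 (SE 0.31, adjusted p = 0.00194). *Pros1*, which encodes protein S, rose with a log2 fold change of 1.83 (SE 0.33, adjusted p = 0.00949). The complement genes *C1qa* and *C1qc* rose by 2.14 and 1.98 on the log2 scale, and *Cd5l*, a secreted scavenger protein of macrophages, by 1.97. *Mfge8*, the bridge from phosphatidylserine to integrins, fell, from 348 and 357 counts in MIZ-1WT to 253 and 214 in MIZ-1DPOZ, with a log2 fold change of -0.69 (SE 0.12, adjusted p = 0.00940). Of these 10 genes, 4 are also in the macrophage marker list.

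Of the other receptors for phosphatidylserine or its bridging proteins, 9 of 10 were tested, 6 were higher and 0 lower (median log2 fold change 1.52). *Itgb5*, the beta subunit that pairs with the alpha V integrin to bind MFGE8, rose most, from 448 and 526 counts to 2866 and 1831 (log2 fold change 2.16, SE 0.20, adjusted p = 0.00160). *Itgav*, its alpha subunit, had a log2 fold change of 0.00 (SE 0.05, adjusted p = 0.973). The CD300 family genes *Cd300a* and *Cd300lb* rose by 1.96 and 1.81 on the log2 scale and the TIM family gene *Timd2* by 1.59.

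Among the other scavenger receptors, 11 of 18 were tested, of which 8 were higher and 0 lower (median log2 fold change 1.18). The median depended on which genes entered. It was 0.71 over 18 genes with no filter on counts and 0.66 over 4 genes with a mean of at least 30 RPM. *Clec7a*, the beta-glucan receptor dectin-1, had the largest rise at 2.02 (SE 0.19, adjusted p = 0.00163), followed by *Cd163*, the hemoglobin scavenger receptor of red pulp macrophages, at 1.83 (SE 0.22, adjusted p = 0.00312) and *Cd68*, a lysosomal macrophage glycoprotein, at 1.67. *Cd163* and *Cd68* are also in the macrophage list. *Cd36*, which binds oxidized LDL and thrombospondin and is also listed as a marginal zone B cell marker, had 8646 and 7172 counts in MIZ-1WT and 15894 and 15536 in MIZ-1DPOZ. Its log2 fold change was 0.90 (SE 0.08, adjusted p = 0.00155), and unlike the 10 receptors it was higher in replicate 1 than 2 in MIZ-1WT (0.22) and lower in MIZ-1DPOZ (-0.08). *Scara5*, *Olr1*, *Megf10* and *Mrc2* had at most 3 counts in every library.

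The LDL receptor family was mixed, with 10 of 14 genes tested, 4 higher and 1 lower (median log2 fold change 0.24). Of all tested genes 21.1% were called higher, 18.9% lower and 40.0% in either direction. *Lrp12* and *Lrp4* rose by 2.40 and 2.31 on the log2 scale, and *Lrp5*, a Wnt co-receptor, by 1.69. *Lrpap1*, the chaperone that escorts LRP1 to the surface, had 1701 and 1530 counts in MIZ-1WT and 2086 and 1911 in MIZ-1DPOZ, and it rose far less than *Lrp1*, with a log2 fold change of 0.21 (SE 0.06, adjusted p = 0.0397). *Sorl1*, a sorting receptor that was abundant in these cells, fell from 1239 CPM to 573 CPM (means, n = 2), with a log2 fold change of -1.11 (SE 0.05, adjusted p = 0.000710).

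The genes of engulfment and cholesterol handling showed no common direction. Of 17 genes 16 were tested, with 6 higher and 5 lower and a median of 0.01 on the log2 scale. With 1 library left out this median ranged from -0.014 to 0.065. *Sirpa*, the inhibitory receptor for CD47 on phagocytes, *Nr1h3*, which encodes the sterol sensor LXR alpha, *Pparg* and *Dock1*, an activator of Rac, rose by 1.94, 1.93, 1.92 and 1.52 on the log2 scale. *Abca7*, *Crk*, *Abca1* and *Crkl* fell by 0.61, 0.43, 0.36 and 0.30 on the log2 scale. These 4 were abundant, with mean levels from 86.3 to 359 CPM in MIZ-1WT. *Abca1* and *Abca7* encode lipid transporters, and *Crk* and *Crkl* encode adaptor proteins.

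Of the other Siglecs, 7 of 8 were tested, 4 were higher and 1 lower (median log2 fold change 1.11). The median was 1.04 and 1.17 over 7 genes without MIZ-1WT replicates 1 and 2. It was 0.56 and 0.46 without MIZ-1DPOZ replicates 1 and 2, where only 6 genes were tested, so these medians are of different gene sets. *Siglece*, an inhibitory Siglec of myeloid cells, had 141 and 200 counts in MIZ-1WT and 1035 and 582 in MIZ-1DPOZ (log2 fold change 2.13, SE 0.29, adjusted p = 0.00429), and *Mag* and *Cd33* were higher from low counts. *Siglecf*, also counted as higher, had 3 counts in each MIZ-1WT library and 13 and 10 in MIZ-1DPOZ, and it passed the filter only through the latter. *Siglecg*, which restrains B cell receptor signaling, fell by 0.34 on the log2 scale (SE 0.07, adjusted p = 0.0122).

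**Figure D4:**
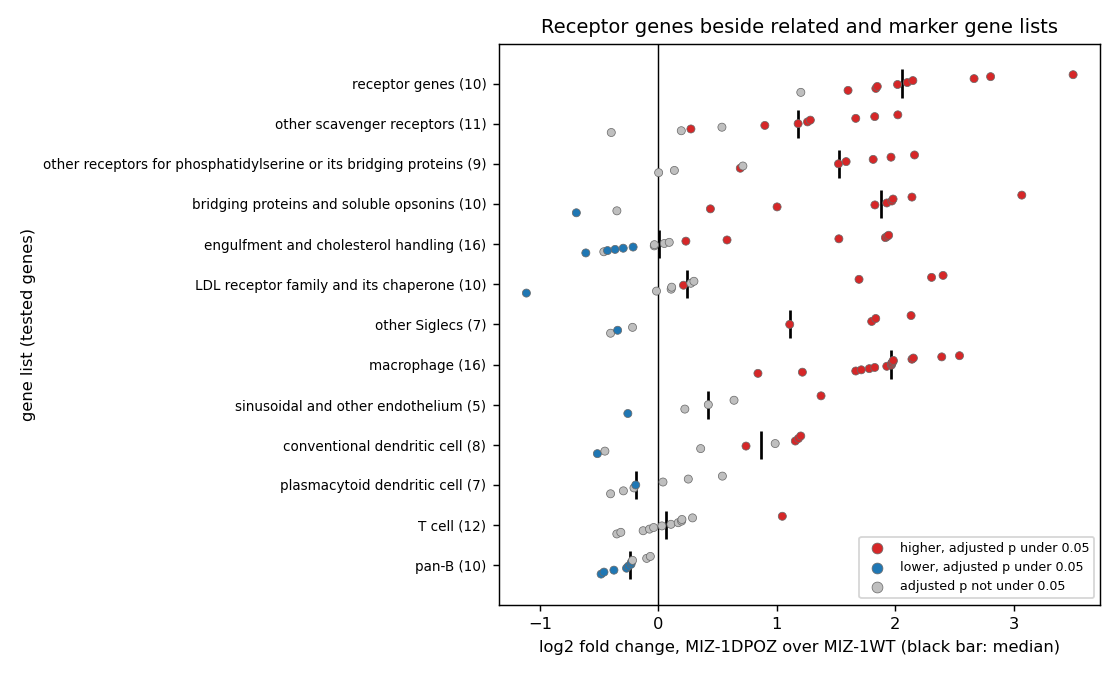
Log2 fold change of every tested gene of the lists drawn, MIZ-1DPOZ over MIZ-1WT. Drawn are the receptors, the related lists and the macrophage, endothelial, both dendritic cell, T cell and pan-B lists. Red marks higher and blue lower at an adjusted p under 0.05, grey neither, and a black bar the median. The other marker lists are not drawn, among them the neutrophil list with a median of 1.73. The median of the receptor genes (2.06) lies near that of the macrophage markers (1.97), and those of the T cell (0.07), plasmacytoid dendritic cell (-0.19) and pan-B (-0.24) lists lie near 0.

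The 5 genes whose pattern over the 4 libraries was most like the median of the receptors were *Fcgr1*, *Rassf6*, *Galnt3*, *Cd300e* and *Itgb5*. Likeness was the distance between log2 CPM profiles centred on their mean, over 9463 protein-coding genes with a mean of at least 5 CPM, and these 5 had distances from 0.0841 to 0.121. Among the receptors themselves *Mrc1* was closest to the median profile (0.0645) and *Siglec1* farthest from it (1.39). *Fcgr1*, the high affinity IgG receptor, is in the macrophage marker list and *Itgb5* was described with the phosphatidylserine receptors. Each profile holds only 4 points, so a small distance says little beyond the genotype difference and the replicate signs.

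The remaining marker lists are given beside the receptors by their counts and medians, against 21.1% of all tested genes called higher and 18.9% lower. The list of conventional dendritic cells had 4 of 8 genes higher and 1 lower (median log2 fold change 0.86). Its summed level was 178 and 171 CPM in MIZ-1WT and 162 and 155 CPM in MIZ-1DPOZ. With 1 library left out its median ranged from 0.61 to 0.88. The T cell list had 1 of 12 higher and 0 lower (median 0.07). The list of plasmacytoid dendritic cells had 0 of 7 higher and 1 lower (median -0.19). Its median ranged from -0.21 to 0.00429 with 1 library left out.

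Of the pan-B genes, 7 of 10 were lower and 0 higher (median -0.24, summed level 16888 and 17027 CPM in MIZ-1WT and 14515 and 15415 CPM in MIZ-1DPOZ). The median stayed between -0.28 and -0.20 whichever library was left out. All 7 marginal zone B cell genes were higher (median 0.76). Of 6 B-1 genes 4 were higher and 1 lower (median 0.63), and the median ranged from 0.49 to 0.74 with 1 library left out.

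Of 8 erythroid genes 0 were higher and 1 was lower (median 0.56). The median depended on the library left out, from -0.38 without MIZ-1DPOZ replicate 2 to 1.19 without MIZ-1DPOZ replicate 1. Of 5 tested neutrophil genes 1 was higher and 0 lower, with a median of 1.73, near that of the receptors. This median ranged from 0.43 over 4 genes without MIZ-1DPOZ replicate 2 to 2.68 over 5 genes without MIZ-1WT replicate 1. The gene called, *Retnlg*, had 7 and 3 counts in MIZ-1WT and 15 and 28 in MIZ-1DPOZ. It passed the filter only through the latter. The summed level of the neutrophil list was 13.8 and 4.07 CPM in MIZ-1WT and 7.52 and 14.8 CPM in MIZ-1DPOZ, and *Mpo* and *Elane* had at most 3 counts.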

How the data were processed

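RNA-seq reads of 4 libraries were trimmed by the authors with Trimmomatic, mapped to mm10 (GRCm38) with TopHat2 (version 2.1.0 in the submitters' processing notes) and counted on Ensembl genes with HTSeq. The authors deposited raw counts per gene, neither normalized nor pooled. The strand setting and the Ensembl release are not given in the sources used here. Symbols and positions come from GENCODE M21 of GRCm38, which named 40340 of 41214 genes. Lines of the table that name no gene (reads outside genes, ambiguous and not uniquely aligned, the last 42.8% to 44.1% of a library) were left out.

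A gene was tested if 2 or more libraries held at least 10 counts of it, which gave 14554 genes. The quasi-likelihood test of edgeR version 4.0.16 (R version 4.3.3) was run with TMM scaling and genotype as the only term, and p-values were adjusted after Benjamini-Hochberg across these genes, with a limit of 0.05. All adjusted p-values are from this test. RPKM was CPM per kilobase of merged exons, and log2 CPM used a prior count of 2. The procedure was tested on simulated data. Depth limits genes near 10 counts, such as *Stab1*.

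The receptor genes, the 6 related gene lists and the 12 marker lists were chosen with earlier results of these data known. Named were all 10 receptors, the called genes of each related list with the largest change (at most 4 a direction), *Tyro3*, *Gas6*, *Pros1*, *Mfge8*, *Lrpap1*, *Cd36* and *Cd163*, marker genes at or near 0, and the 5 genes most like the receptors' median. *Itgav*, *Cdh5*, *Nt5dc2*, *Gm16268*, *Slc40a1*, *Lpl*, *Cd209a*, *Pecam1*, *Vwf*, *Lyz2*, *Itgam*, *Mpeg1*, *Retnlg* and *Xist* were added after their values were seen. Alternatives were size factors from DESeq2 version 1.42.0, its Wald test, no count filter, a floor of 30 RPM on the mean, the replicate number as a block, counts without 257 immunoglobulin segments, leaving out each library, the study's fold limit of 0.6 with an unadjusted p under 0.05 (the methods give p values above 0.05 as significant and name a correction for multiple testing) and other macrophage denominators.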

Additional observations from a re-analysis of the deposited data

How the results depend on the processing

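Of the 10 receptor genes, 8 kept their direction and their call under every alternative in which they were tested. *Stab1*, not called, passed with no filter (adjusted p = 0.0404), without immunoglobulin segments (0.0479) and without MIZ-1DPOZ replicate 2 (0.0381), with log2 fold changes from 0.88 to 1.60 when 1 library was left out. *Timd4* lost its call without MIZ-1WT replicate 1 and ranged from 1.15 to 2.26. A mean of at least 30 RPM left 6052 genes, 1464 higher and 1282 lower, and 4 receptors, all 4 higher. It left 32 genes of the related lists, 21 of them called with a median of 0.20, and 31 called marker genes, and it turned the medians of the other Siglecs (-0.27), the endothelium (-0.18, 1 gene), the conventional dendritic cells (-0.44, 1 gene) and the plasmacytoid dendritic cells (0.000508). Fewer genes were tested there. When 1 library was left out, the genes called higher ranged from 1374 to 2955 and those lower from 848 to 2625, both lowest without MIZ-1WT replicate 1, the called receptors from 8 to 10, the called genes of the related lists from 25 to 43 and the called marker genes from 28 to 53. A lone library is then assumed to vary like the other genotype. The medians that turned ranged from -0.014 to 0.065 for engulfment, -0.16 to 0.26 for T cell, -0.21 to 0.00429 for plasmacytoid dendritic cell and -0.38 to 1.19 for erythroid genes, and the cause was not tested. With the replicate number as a block 9 receptors were higher, as without it, and 2633 genes were higher and 2099 lower. Same-numbered libraries did not deviate together over the tested genes (correlation -0.0688). With so few libraries this cannot show whether they were prepared as pairs, and the labels do not say. With other macrophage denominators 5 (with *Axl*) or 6 receptors (with *Axl* and *Mrc1*), in place of 4, lay above in both MIZ-1DPOZ libraries. Depth limits *Stab1* and *Msr1*, at 12 to 30 counts in MIZ-1WT.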
